A study of Macaca mulatta with 11 samples.

Results

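Cumulus cells of the rhesus macaque (Macaca mulatta) that had matured with their oocyte in culture were compared with cumulus cells that had matured in the animal. The comparison took every array whose title names in vitro matured (IVM, 3 arrays) or in vivo matured (VVM, 4 arrays) cumulus cells, which is 7 of the 11 arrays of the series. IVM cells came from cumulus-oocyte complexes of animals stimulated with follicle-stimulating hormone (FSH) alone and then matured in vitro. VVM cells came from complexes of animals given FSH and then human chorionic gonadotropin (hCG), which acts on the luteinizing hormone receptor, so that maturation took place in the follicle. All groups share the FSH stimulation, and the other 4 arrays hold pre-maturation cells (PM) of immature complexes taken after FSH alone. Culture and hCG therefore differ together between IVM and VVM and cannot be told apart. The series design asks which cumulus transcripts could mark oocyte quality, with PM as the starting state. Total RNA was amplified in repeated rounds, labelled with biotin and hybridized to Affymetrix arrays, and 14132 genes were measured, each by 1 probe set. No label names the animals, so arrays of 1 group may share an animal; a p-value here covers no more than the scatter of these arrays, and their number limits the precision.

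Cumulus cells are the granulosa cells that surround the oocyte and are coupled to it through gap junctions. Before ovulation the luteinizing hormone surge reaches them mainly through EGF-like ligands released by the follicle wall and by the cumulus itself. They then stop dividing, secrete a hyaluronan matrix that loosens the complex, turn from oestrogen towards progesterone production, and close the junctions while the oocyte resumes meiosis. They also supply the oocyte with pyruvate, amino acids and sterols.

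Values are log2 intensities, differences are IVM minus VVM with the standard error (SE) of the limma fit, and adjusted p-values are by the Benjamini-Hochberg method. Of the 14132 genes, 16.7% passed at an adjusted p under 0.05. A gene is called here when it passed in the same direction also in each of 11 fits that leave out 1 array, so that no call rests on 1 array. Called genes numbered 1180 (8.35%), of which 628 were higher (4.44%) and 552 were lower (3.91%) in IVM. In all 1180 the IVM and VVM arrays did not overlap, as in 28.6% of all genes. The median difference was 0.08 over all genes, 1.03 over the genes called higher and -1.39 over those called lower. At least a 2-fold difference was found in 53.5% of the genes called higher and 79.9% of those called lower, and at least an 8-fold difference in 10 and 28 genes. Where arrays of a group lay below a log2 level of 6, near the array medians of 5.34 to 5.53, part of the signal may be background, so such differences may understate the fold. Where some but not all probe sets of a gene passed in its direction, their number follows the value.

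The cells carried granulosa transcripts in both groups: INHA, the inhibin alpha subunit, stood at 13.23, 13.04 and 13.55 in IVM and at 13.50, 13.60, 13.47 and 13.38 in VVM, and GATA6, a granulosa transcription factor, at 11.99 ± 0.10 (SD, n = 3) and 12.21 ± 0.24 (SD, n = 4). Array means of 21 oocyte markers ranged from 5.70 to 5.82 in IVM and from 5.67 to 5.97 in VVM. In PM they stood at 7.34 in PM 1 and at 5.51, 5.52 and 5.58 in PM 2, PM 3 and PM 4, so PM 1 held more oocyte transcript. Markers of 21 leukocyte and macrophage genes ranged from 5.74 to 5.88 in IVM and from 5.89 to 7.62 in VVM, and 4 of them (LYZ, TYROBP, CD14 and PTPRC) averaged 5.41, 7.48, 8.70 and 5.36 in the 4 VVM arrays against 4.60 ± 0.10 (SD, n = 3) in IVM. VVM 2 and VVM 3 had the highest levels of these 4 markers among the 11 arrays. Of the 21 markers 17 were lower and 4 higher in IVM by sign, and 3 passed lower with all arrays. None was called, which does not show equal leukocyte content, since a call must hold without any 1 array. Against PM 13 passed higher and 2 lower in VVM, and 3 passed in each direction in IVM. With VVM 2, VVM 3 and PM 1 left out together 953 of the 1180 called genes passed (80.8%). PM 1 was the highest PM array on the oocyte markers and, by little, on these 4 markers (4.56 against 4.31, 4.23 and 4.39). With the level of the 4 markers as a covariate 809 of the 1180 passed (68.6%). Bacterial hybridization controls stood at 12.16, 12.11 and 11.45 in the IVM arrays and at 10.39, 11.22, 11.31 and 11.17 in the VVM arrays, without overlap. The PM arrays ranged from 9.85 to 10.24, below both, so this level and the group cannot be told apart. Where it serves as a covariate below, the fit cannot separate the 2. With that level as a covariate 279 of the 1180 passed (23.6%), and all 1180 kept their sign in each of these fits. In whole samples, fewer cells of a type and less RNA per cell cannot be told apart.

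The tests against PM sort the called genes by direction, and a group that did not pass is not shown to be unchanged. Between IVM and PM 45.9% of all genes passed, and between VVM and PM 39.8%, and both comparisons share the PM arrays. Of the 628 genes higher in IVM, 275 (43.8%) were above PM in IVM while VVM did not pass against PM, and 204 (32.5%) were below PM in VVM while IVM did not pass. Another 48 were above PM in IVM and below it in VVM, 48 were above PM in both and 38 below PM in both. Of the 552 genes lower in IVM, 224 (40.6%) were below PM in IVM while VVM did not pass, and 158 (28.6%) were above PM in VVM while IVM did not pass. A further 87 were below PM in both groups, 41 above PM in both, and 36 below PM in IVM and above it in VVM. The remaining 15 higher and 6 lower genes passed against PM in neither group.

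**Figure D1:**
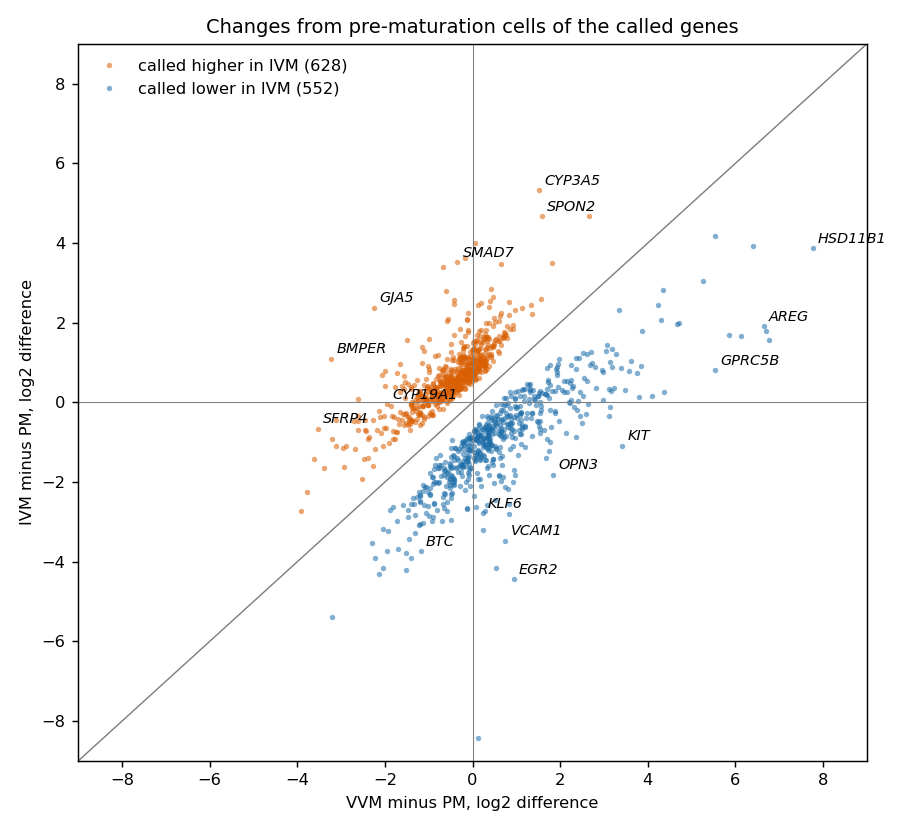
Each point is a called gene, with its log2 difference between VVM and PM on the horizontal axis and between IVM and PM on the vertical axis; orange points (628) were called higher and blue points (552) lower in IVM, and the grey diagonal marks equal change. The lowest point is the gene annotated as USP14 (-8.42 in IVM and 0.13 in VVM). Named points include HSD11B1 and AREG, above PM in both groups but further in VVM (3.87 and 7.76 for HSD11B1), KLF6, below PM in IVM only by the test (-2.78 and 0.23), and GJA5, above PM in IVM and below it in VVM (2.38 and -2.25).

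Genes of the ovulatory relay were among those that differed. Of 12 measured EGF-like ligands and receptors, 2 ligands were called lower (16.7%) and 1 receptor higher (8.33%) in IVM. AREG (amphiregulin), a ligand that carries the luteinizing hormone signal to the cumulus, stood at 8.08, 6.29 and 5.52 in the IVM arrays and at 11.04, 11.66, 12.36 and 10.40 in the VVM arrays. IVM 1 was the highest IVM array and still lay below the lowest VVM array, and the difference was 26.6-fold (-4.73 ± 0.58 SE, adjusted p = 0.000757). The PM arrays stood at 4.41, 4.70, 4.32 and 5.44, so AREG was above PM in both groups, by 1.92 in IVM and 6.65 in VVM. BTC (betacellulin), another ligand, had the other history: it stood at 9.52, 8.49, 8.28 and 9.58 in PM, at 4.79, 5.48 and 5.41 in IVM and at 8.61, 7.38, 7.76 and 7.37 in VVM, below PM in both groups and lowest in IVM (-2.55 ± 0.38, 1 of 2 probe sets). ERBB3, a receptor that pairs with other EGF receptor family members, was higher in IVM (2.33 ± 0.52, 2 of 4 probe sets). The remaining 9 members were not called, among them EGFR (-0.91 ± 0.30) and HBEGF (-0.19 ± 0.38).

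Feedback inhibitors of the EGF receptor and ERK pathway were called lower in IVM in 3 of 18 cases (16.7%) and higher in none. SPRY1, a sprouty inhibitor of receptor tyrosine kinase signalling, stood at 8.21, 7.35 and 7.90 in IVM against 9.53, 9.89, 10.34 and 10.04 in VVM (adjusted p = 0.000443) and at 6.48, 6.86, 7.07 and 6.80 in PM, a rise from PM in both groups that was larger in VVM. LRIG1, a membrane protein that promotes turnover of EGF receptors, stood at 5.97, 5.18 and 5.50 in IVM and at 9.12, 8.42, 9.56 and 9.01 in VVM (-3.48 ± 0.28, 1 of 3 probe sets), with IVM near the PM mean of 5.90. SPRY2 was lower in IVM (-1.86 ± 0.33, 1 of 2 probe sets) and passed below PM there. With the hybridization control level as a covariate, 2 of the 18 passed lower, SPRY1 and LRIG1.

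Among genes of meiotic arrest, cyclic nucleotides and G protein regulation, a few showed large differences. GPRC5B, an orphan G protein-coupled receptor, stood at 7.10, 7.06 and 6.42 in IVM and at 11.98, 11.04, 11.88 and 11.41 in VVM, 26.4-fold apart (-4.72 ± 0.26, adjusted p = 1.06e-05, 2 of 3 probe sets), against 5.96, 5.64, 6.32 and 6.28 in PM. RAPGEF4 (EPAC2), an exchange factor that cyclic AMP activates directly, stood at 7.59, 7.41 and 7.86 in IVM and at 10.37, 10.27, 10.59 and 10.80 in VVM, 7.41-fold apart (adjusted p = 1.92e-05, 3 of 3 probe sets). It moved to opposite sides of PM, by -0.76 in IVM and by 2.13 in VVM. GNAI1 (-1.70 ± 0.32, 1 of 2 probe sets), an inhibitory G protein alpha subunit, and CREB1 (-0.82 ± 0.16, 1 of 2 probe sets), a transcription factor that cyclic AMP activates through protein kinase A, were also lower in IVM, and CREB1 was below PM in both groups. RGS19, which speeds the shut-off of inhibitory G proteins, was the only called member of the 66 measured genes of this list that was higher in IVM (1.26 ± 0.22). Over that list 1 was called higher (1.52%) and 4 lower (6.06%). The share called in either direction was 7.58%, near the 8.35% of all genes.

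Of 17 measured genes downstream of the luteinizing hormone surge, 3 were called lower (17.6%) and 1 higher (5.88%). CEBPA, a transcription factor that with its partner CEBPB drives ovulation and luteinization, stood at 9.65, 8.67 and 8.15 in IVM and at 11.48, 11.01, 11.71 and 10.97 in VVM, against 4.80, 4.09, 4.22 and 6.45 in PM. All IVM arrays lay above all PM arrays and below all VVM arrays, a difference of -2.47 ± 0.52 between the matured groups (3 of 3 probe sets). ADAMTS9, a secreted protease of the proteoglycan-cleaving family, lay in the same order, at 11.72, 11.31 and 10.76 in IVM and 12.68, 12.12, 12.85 and 12.83 in VVM (-1.36 ± 0.28, 3 of 5 probe sets), with a PM mean of 7.08. CITED2, a transcriptional coactivator, did not pass against PM in IVM and was 4.34-fold lower than in VVM (-2.12 ± 0.36). PGR, the progesterone receptor that ovulation requires, ran the other way at 7.49, 7.06 and 7.18 in IVM against 6.005, 5.33, 5.69 and 6.25 in VVM (1.42 ± 0.26). In PGR it was VVM that did not pass against PM (0.29), while IVM was above it (1.72). With all arrays 5 members of the list passed lower and 1 higher. Without PM 1, VVM 2 and VVM 3 together 4 passed lower and none higher. With the leukocyte marker level as a covariate 1 passed lower and none higher, and the same counts were found with the hybridization control level.

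Of 22 measured genes of the cumulus expansion matrix 1 was called lower and 1 higher (9.09%), near the 8.35% of all genes. PTX3, a pentraxin that organises the hyaluronan matrix, stood at 6.54, 3.89 and 2.94 in IVM and at 9.15, 9.63, 10.97 and 7.70 in VVM, against 2.64, 2.76, 2.66 and 2.63 in PM. IVM 1 stood well above PM and IVM 3 close to it, so the IVM arrays were widely spread, and all lay below VVM (-4.90 ± 0.81, adjusted p = 0.0034). HYAL2, a hyaluronidase, was higher in IVM (0.98 ± 0.13). The other genes of the list were not called, and HAS2, the hyaluronan synthase, TNFAIP6, which crosslinks the matrix, and VCAN, a proteoglycan within it, differed by 0.33 ± 0.58, -0.69 ± 0.51 and 0.41 ± 0.13. HAS2 and TNFAIP6 passed above PM in both groups, by 2.61 and 4.20 in IVM and by 2.29 and 4.88 in VVM. Of the 2 probe sets of HAS2, 1 passed higher in IVM than in VVM.

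**Figure D2:**
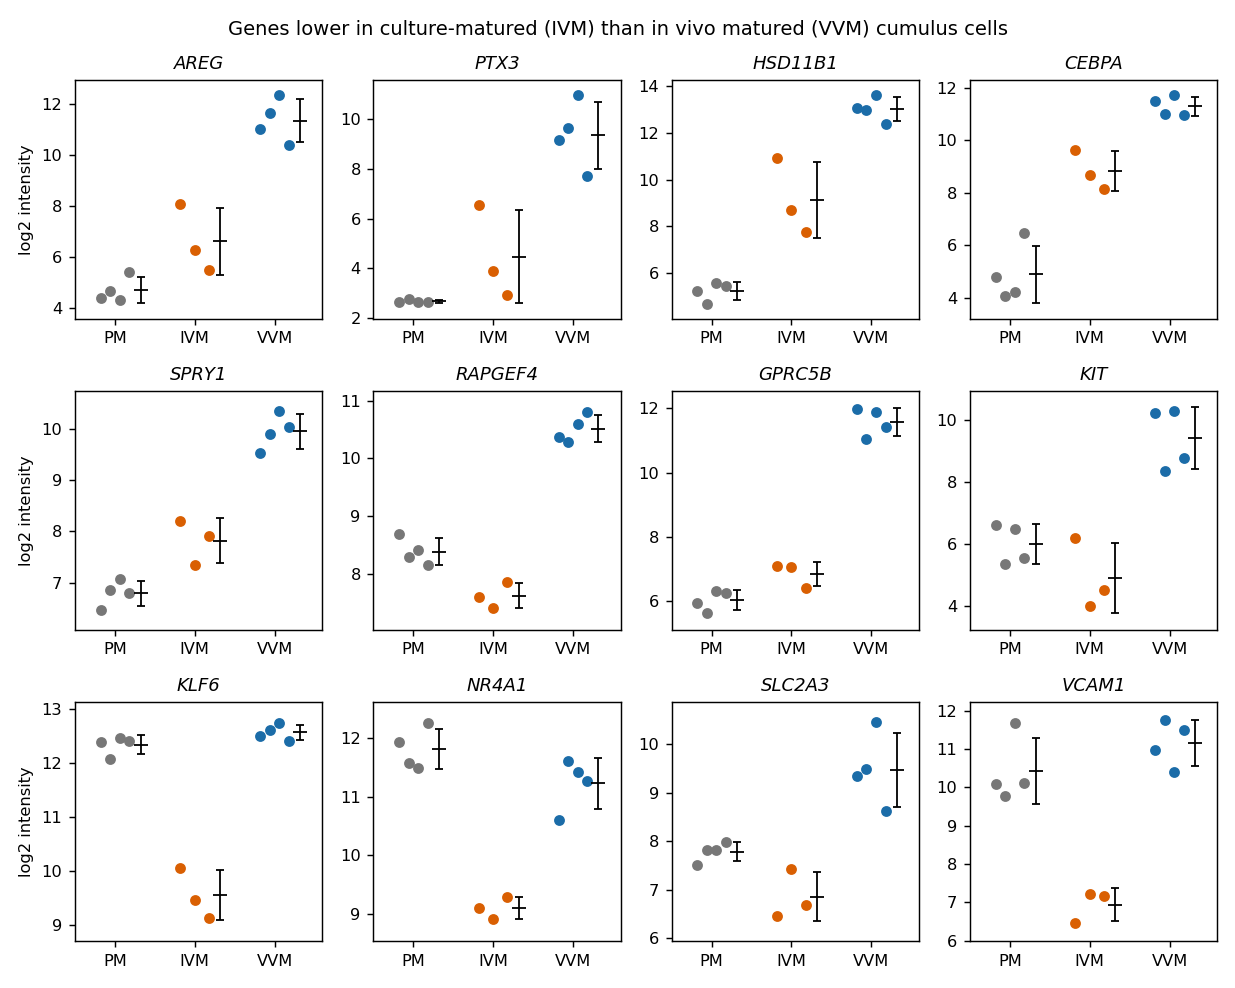
Log2 intensity of 12 genes called lower in IVM than in VVM, with 1 panel per gene and its own vertical scale; each point is an array (PM grey, IVM orange, VVM blue), and the bar beside each group is the mean with its SD (n = 4, 3 and 4). In every panel the IVM points lie below the VVM points, while PM lies at or below IVM for AREG and HSD11B1 and at the VVM level for KLF6.

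Immediate early transcription factors, which are induced quickly and for a short time by many stimuli, were called lower in 10 of 34 measured cases (29.4%) and higher in none, against 3.91% and 4.44% of all genes. The median difference of the list was -0.94, and it was -0.98 with each array centred and -0.86 after another quantile normalization. It was -0.53 without PM 1, VVM 2 and VVM 3, -0.47 with the leukocyte marker level as a covariate, where 6 members passed lower and 1 higher, and -1.24 with the hybridization control level. KLF6 stood at 10.06, 9.47 and 9.14 in IVM and at 12.50, 12.61, 12.75 and 12.42 in VVM (-3.01 ± 0.20, adjusted p = 2.59e-05, 5 of 6 probe sets), and the PM arrays, at 12.39, 12.08, 12.47 and 12.42, overlapped with VVM. The nuclear receptors NR4A1 and NR4A2 were lower too, NR4A1 at 9.09, 8.90 and 9.29 in IVM against 10.61, 11.62, 11.43 and 11.28 in VVM (-2.14 ± 0.24). NR4A2 was lower in IVM in all 5 of its probe sets (-1.67 ± 0.18). EGR2 was lower in IVM (-5.38 ± 0.57, 1 of 2 probe sets), with arrays at 7.02, 4.38 and 6.27 in IVM and at 10.91, 11.41, 11.67 and 11.11 in VVM.

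The remaining called members were KLF2 (-2.20 ± 0.33, 1 of 2 probe sets), KLF4 (-3.45 ± 0.70, 1 of 2 probe sets), IER2 (-1.69 ± 0.30), CSRNP1 (-1.82 ± 0.32), MAFF (-1.91 ± 0.21) and the stress-induced growth arrest gene GADD45A (-3.04 ± 0.63). All but KLF2 and GADD45A passed below PM in IVM, and among these NR4A2 and MAFF passed below PM in VVM as well. KLF2 and GADD45A passed above PM in VVM, by 1.36 and 2.51. FOS and ATF3 were not called, with differences of -1.59 ± 0.57 and -1.60 ± 0.53 and overlap between single arrays of FOS. Array means over all 34 members stood at 8.39, 7.84 and 7.95 in IVM and at 9.13, 9.59, 9.67 and 8.94 in VVM. VVM 2 and VVM 3, where the leukocyte markers were highest, had the highest means, and with these and PM 1 left out 8 members passed lower and 1 higher in place of 13 and 0. With the hybridization control level as a covariate 6 passed lower and none higher.

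Of 14 measured genes of the circadian clock 2 were called lower in IVM (14.3%, against 3.91% of all genes) and none higher, and 12 were lower by sign. NR1D1 (REV-ERB alpha), a repressor of the clock, stood at 7.50, 7.05 and 7.13 in IVM and at 9.14, 10.26, 10.30 and 8.93 in VVM (-2.43 ± 0.35, 1 of 2 probe sets). RORA, the activator that competes with it for the same sites, stood at 9.79, 8.50 and 7.27 in IVM and at 11.06, 10.88, 11.50 and 11.47 in VVM (-2.71 ± 0.50). RORA passed above PM in both groups, by 1.96 and 4.67, and NR1D1 in VVM alone. PER1 and BHLHE40 passed with all arrays but not in every fit, at -1.21 ± 0.34 and -2.67 ± 0.66 respectively. With all arrays 6 members passed lower and none higher. Without PM 1, VVM 2 and VVM 3 the number passing lower was 3. It was 1 with the leukocyte marker level as a covariate and 2 with the hybridization control level. NR1D1 stood highest in VVM 2 and VVM 3, where the leukocyte markers were highest. The labels give no collection times.

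Steroid hormone genes showed members in both directions. Of 26 measured genes of synthesis and conversion, 5 were called higher in IVM (19.2%) and 1 lower (3.85%). CYP19A1 (aromatase), which makes oestrogen, stood at 9.74, 9.63 and 9.74 in IVM and at 7.28, 8.66, 7.68 and 7.58 in VVM (1.91 ± 0.41), with IVM within the PM range of 9.20, 10.64, 10.25 and 8.94 and VVM below it, with a change from PM of -1.96. HSD3B2, which makes progesterone from pregnenolone, stood at 13.27, 12.65 and 12.48 in IVM and at 9.58, 11.05, 11.07 and 10.74 in VVM (2.19 ± 0.40), where VVM overlapped with PM and IVM did not. FDXR (1.24 ± 0.25, 1 of 2 probe sets), which supplies electrons to mitochondrial steroidogenic enzymes, and POR (1.68 ± 0.27, 1 of 4 probe sets), which does so for enzymes of the endoplasmic reticulum such as aromatase, were also higher. Both passed below PM in VVM and not in IVM. STAR, which carries cholesterol into mitochondria, was not called (-0.98 ± 0.60).

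CYP3A5, an enzyme that oxidises steroids and many drugs, rose further from PM in IVM than in VVM. It stood at 3.80, 3.90, 3.78 and 3.49 in PM, at 5.27, 5.08, 5.71 and 4.95 in VVM and at 10.16, 8.05 and 9.01 in IVM (3.82 ± 0.38, adjusted p = 0.000272), and all 3 of its probe sets passed. HSD11B1, which turns inactive into active glucocorticoid, was the called member lower in IVM. Its arrays stood at 10.91, 8.68 and 7.75 in IVM and at 13.07, 12.98, 13.62 and 12.39 in VVM, above PM by 3.87 and 7.76, and IVM 1 again lay closest to VVM. NR3C1, the glucocorticoid receptor, was lower in IVM as well (-1.14 ± 0.18, 1 of 3 probe sets) and below PM in both groups. Among the other nuclear receptors and coregulators, the coactivators NCOA2 (-1.73 ± 0.20, 2 of 3 probe sets) and NCOA4 (-1.05 ± 0.17) were lower, and NR1H2, an oxysterol receptor, was higher (0.52 ± 0.10).

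Genes that mark granulosa identity and the FSH response were called higher in IVM in 3 of 22 cases (13.6%) and lower in none. Besides CYP19A1 these were GATA4, a granulosa transcription factor, at 8.88, 9.13 and 9.76 in IVM and 7.59, 7.97, 8.13 and 8.08 in VVM, and AMHR2, the receptor of anti-Mullerian hormone, at 7.43, 7.54 and 7.50 in IVM and 6.49, 6.88, 6.87 and 6.59 in VVM. GATA4 passed below PM in both groups, with changes of -1.62 in IVM and -2.94 in VVM, so both had fallen from PM and VVM further. HSD17B1 and INHBB passed higher with all arrays but not in every fit (1.83 ± 0.46 and 1.64 ± 0.42), and AMH did not pass (1.61 ± 0.53). The list held 8 members that passed higher and 1 that passed lower with all arrays, and none passed in either direction with the hybridization control level as a covariate.

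Of 33 measured SMADs and inhibitors of TGF-beta and BMP signalling, 5 were called higher in IVM (15.2%) and 1 lower (3.03%). SMAD7, which blocks TGF-beta and BMP receptors, stood at 9.26, 9.59 and 9.25 in IVM against 5.22, 5.61, 5.55 and 5.66 in VVM and 6.10, 5.36, 5.07 and 6.87 in PM, so that IVM alone departed from PM. SMAD6, which acts mainly on the BMP branch, followed with a wider spread, at 8.94, 9.32 and 7.14 in IVM and 5.58, 4.69, 6.12 and 6.13 in VVM (2.84 ± 0.54). BMPER, a secreted BMP-binding protein, reached its difference from the other side: it stood at 6.11, 8.02 and 8.15 in IVM, at 6.36, 5.75, 6.89 and 6.31 in PM and at 3.75, 2.51, 3.52 and 2.62 in VVM, with a change from PM of -3.23 in VVM. FSTL3 (1.53 ± 0.27), a secreted inhibitor of activin, and PMEPA1 (1.92 ± 0.42), a membrane protein that sequesters SMADs, were also higher in IVM. TGIF1, a nuclear corepressor of SMADs, was lower (-1.22 ± 0.18).

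Of 30 measured ligands and receptors of the same families, 3 were called higher (10%) and none lower. GDF11, a ligand of the activin branch, stood at 6.32, 6.34 and 5.90 in IVM and at 5.11, 4.98, 4.78 and 5.06 in VVM (1.21 ± 0.14). ENG (endoglin), a coreceptor of the TGF-beta family that is also an endothelial marker, stood at 9.21, 9.55 and 9.10 in IVM and at 7.75, 7.96, 8.19 and 7.83 in VVM (1.35 ± 0.15, 1 of 2 probe sets), while it was the only called member among 17 endothelial markers. The remaining member was AMHR2. SMAD7, GDF11 and ENG stood above PM in IVM, by 3.51, 1.55 and 1.51, and did not pass against PM in VVM.

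Insulin and insulin-like growth factor signalling held 7 members lower (17.5%) and 1 higher (2.5%) of 40 measured, while 19 were lower and 21 higher by sign. IGFBP1, a secreted binding protein of insulin-like growth factors, stood at 5.00, 4.37 and 3.46 in IVM and at 8.06, 8.08, 10.27 and 7.21 in VVM (-4.13 ± 0.71), and all 3 IVM arrays lay below a level of 6. KIT, the receptor of the ligand that granulosa cells offer the oocyte, was assigned to this list as a receptor tyrosine kinase, and stood at 6.18, 4.01 and 4.50 in IVM, 10.23, 8.35, 10.28 and 8.78 in VVM and 6.59, 5.35, 6.50 and 5.53 in PM. VVM was above PM (3.42) and IVM did not pass (-1.09). IRS2, an adaptor of the insulin receptor, stood at 10.29, 10.05 and 8.92 in IVM and at 11.57, 11.59, 11.32 and 11.57 in VVM (-1.76 ± 0.27), with little spread in VVM. PIK3R1, the regulatory subunit of phosphoinositide 3-kinase (-1.14 ± 0.20, 3 of 4 probe sets), its inhibitor PIK3IP1 (-1.52 ± 0.26, 2 of 3 probe sets), RICTOR of the mTOR complex 2 (-1.08 ± 0.24) and the receptor-binding adaptor GRB14 (-0.77 ± 0.15) were lower too. TRIB3, an inhibitor of AKT that amino acid shortage induces, was the member higher in IVM (1.44 ± 0.20, 1 of 2 probe sets).

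Of 29 measured genes of the amino acid response and integrated stress response, 6 were called higher (20.7%) and 1 lower, with 18 higher and 11 lower by sign and a median difference of 0.37. ASNS, which makes asparagine and is a classic target of the factor ATF4, stood at 8.90, 10.29 and 11.57 in IVM, at 6.66, 5.43, 6.34 and 6.23 in VVM and at 6.09, 8.11, 6.76 and 6.42 in PM. IVM 3 was the highest IVM array, and IVM 1, the lowest, still lay above all VVM arrays (4.09 ± 0.60). SLC7A11, which imports cystine for glutathione, showed the same order of arrays, at 6.51, 8.73 and 9.38 in IVM against 4.12, 4.60, 4.47 and 3.85 in VVM (3.95 ± 0.58, 1 of 2 probe sets). PHGDH, the first enzyme of serine synthesis, at 9.24, 10.72 and 11.70 in IVM and 7.61, 8.08, 7.55 and 8.45 in VVM, was higher (2.63 ± 0.45), and VVM passed below PM while IVM did not pass. The transporter SLC1A4 (1.58 ± 0.34, 1 of 4 probe sets) and ALDH18A1 (0.89 ± 0.18), an enzyme of proline synthesis, were the other members higher, besides TRIB3.

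Of 23 genes of serine, glycine and one-carbon metabolism 3 were called higher (13%) and 1 lower (4.35%), with a median of 0.06. Besides PHGDH the higher genes were MTHFD1, a folate enzyme (0.95 ± 0.16), and AHCY, which clears S-adenosylhomocysteine (1.05 ± 0.20), both with VVM below PM. ALDH1L1, which removes one-carbon units from the folate pool, was lower, at 6.71, 6.26 and 6.13 in IVM, 8.39, 8.68, 8.88 and 8.52 in VVM and 10.13, 9.97, 9.98 and 10.48 in PM. HERPUD1, a gene of the endoplasmic reticulum that is grouped with the stress response, was the member called lower in IVM (-1.09 ± 0.19). SLC36A4, an amino acid transporter, was lower too (-1.94 ± 0.26). Of 32 amino acid transporters 2 were called higher (6.25%) and 1 lower (3.12%), near the shares of all genes, with a median of 0.04.

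Aminoacyl tRNA synthetases, which load tRNAs with their amino acid, were the list with the largest share of called members higher in IVM among the 51 process lists: 8 of 18 (44.4%) were called higher, none lower, and all 18 were higher by sign. The median difference was 0.56, and 0.52 and 0.59 with centring and after another quantile normalization. VARS1 stood at 8.48, 9.22 and 9.04 in IVM and at 6.95, 7.31, 7.05 and 7.004 in VVM (1.83 ± 0.17, adjusted p = 0.000189), and PM lay between them at 8.05, 8.24, 7.88 and 8.12. AIMP2, a scaffold of the multisynthetase complex, stood at 11.36, 11.48 and 11.56 in IVM and at 9.85, 10.20, 10.34 and 9.74 in VVM (1.43 ± 0.15, 1 of 2 probe sets). YARS1 (1.31 ± 0.20, 1 of 2 probe sets), WARS1 (1.01 ± 0.20, 1 of 3 probe sets), FARSA (0.93 ± 0.13, 1 of 2 probe sets), KARS1 (0.84 ± 0.13, 3 of 4 probe sets), MARS1 (0.82 ± 0.19, 1 of 2 probe sets) and the mitochondrial AARS2 (0.66 ± 0.12) completed the group. Against PM, 10 of the 18 passed lower in VVM and 1 higher, while 5 passed higher in IVM and 1 lower. Array means over the list were 9.51, 9.62 and 9.95 in IVM, 8.95, 9.10, 8.98 and 8.95 in VVM, and 9.42 to 9.53 in PM. With the hybridization control level as a covariate 4 passed higher and none lower.

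Mitochondrial ribosome and import genes held the largest number of calls: 22 of 69 (31.9%) were called higher in IVM and none lower, with 55 higher by sign and a median of 0.45 (0.41 with centring, 0.55 after another quantile normalization). MRPL20 stood at 10.69, 10.82 and 11.06 in IVM and at 8.94, 8.93, 9.72 and 9.45 in VVM (1.60 ± 0.25). MRPL40, at 10.56, 10.77 and 11.05 in IVM and 9.33, 9.20, 9.53 and 9.14 in VVM, and MRPL19, at 8.46, 8.71 and 8.84 in IVM and 7.12, 7.40, 7.33 and 7.24 in VVM, passed also with the hybridization control level as a covariate. Among import proteins TIMM50 (1.18 ± 0.15), TIMM9 (0.83 ± 0.10) and TIMM44 (0.78 ± 0.12, 1 of 2 probe sets) were higher. Of the called subunits of the ribosome, 15 belonged to its large and 4 to its small part, and their differences ranged from 0.75 in MRPS23 to 1.60 in MRPL20. The array means show both sides of the difference: 9.34, 9.34 and 9.53 in IVM, 9.12 to 9.27 in PM, and 8.91, 8.92, 9.01 and 8.88 in VVM, without overlap between the 3 groups. With the covariate 6 members passed higher and none lower.

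Respiratory chain and ATP synthase subunits were called higher in 10 of 55 cases (18.2%) and lower in none, with a median of 0.42 that was 0.38 with centring and 0.48 after another quantile normalization. Of the first complex, NDUFS8 stood at 10.92 ± 0.07 over the 3 culture arrays (SD) against 9.55 ± 0.30 over the 4 VVM arrays (SD) (1.37 ± 0.16), and NDUFB7 (1.497 ± 0.19, 1 of 2 probe sets), NDUFS7 (1.07 ± 0.18, 1 of 2 probe sets), NDUFB4 (0.76 ± 0.12, 1 of 2 probe sets) and NDUFA6 (0.54 ± 0.10, 2 of 5 probe sets) were higher. Of the ATP synthase, ATP5PF stood at 12.24, 12.15 and 12.22 in IVM and at 11.20, 11.09, 11.57 and 10.81 in VVM and was above PM in both groups, by 2.61 and 1.57. ATP5MC1 (1.02 ± 0.17, 1 of 2 probe sets), ATP5PO (0.92 ± 0.15, 2 of 3 probe sets) and ATP5F1E (0.71 ± 0.13, 1 of 2 probe sets) and the assembly factor COX11 (0.89 ± 0.18) were the others. Array means were 10.52, 10.56 and 10.63 in IVM, above the range of 10.13 to 10.22 in VVM and 10.08 to 10.21 in PM. With the covariate 2 passed higher and none lower.

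Proteasome subunits, which form the main protease of the cell, were called higher in 7 of 29 cases (24.1%) and lower in none, with a median of 0.34 (0.30 with centring, 0.43 after another quantile normalization, 0.56 with the leukocyte and 0.55 with the hybridization covariate). PSME2, a subunit of the interferon-inducible activator, stood at 10.78, 10.62 and 10.72 in IVM and at 9.31, 9.61, 9.70 and 9.45 in VVM (1.19 ± 0.14, 1 of 2 probe sets), and PSMB10, an inducible catalytic subunit, at 9.61, 10.10 and 10.35 in IVM and 8.22, 8.23, 8.85 and 8.46 in VVM (1.58 ± 0.23, 1 of 2 probe sets). The constitutive members PSMB6 (0.67 ± 0.11), PSMD1 (0.82 ± 0.15, 1 of 2 probe sets), PSMD7 (0.75 ± 0.16) and PSMD11 (1.001 ± 0.23, 1 of 2 probe sets) and the assembly factor PSMG1 (0.79 ± 0.14, 1 of 2 probe sets) were higher as well. Array means were 10.41, 10.27 and 10.63 in IVM and 9.99 to 10.04 in VVM, and the PM range of 9.94 to 10.06 enclosed VVM. With the covariate 2 members passed higher and none lower.

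Endoplasmic reticulum chaperones and genes of the unfolded protein response ran opposite to these lists: 7 of 36 (19.4%) were called lower in IVM and none higher, with a median of -0.28 that was -0.32 with centring and -0.16 after another quantile normalization. DERL1, part of the channel that returns misfolded proteins to the cytosol, stood at 9.11, 8.72 and 9.32 in IVM and at 10.69, 10.18, 10.20 and 10.21 in VVM (-1.27 ± 0.18, 3 of 4 probe sets). EDEM1, which extracts misfolded glycoproteins for degradation, stood at 7.69, 7.44 and 7.90 in IVM and 8.95, 8.66, 8.61 and 8.83 in VVM (-1.09 ± 0.14, 1 of 2 probe sets). The disulfide isomerases PDIA6 (-0.96 ± 0.20, 2 of 3 probe sets) and P4HB (-0.61 ± 0.12), the oxidase ERO1A that recharges them (-1.89 ± 0.36, 2 of 3 probe sets), the cochaperone DNAJC1 (-0.89 ± 0.17, 1 of 2 probe sets) and HERPUD1, at 11.21, 10.96 and 11.41 in IVM and 12.15, 12.27, 12.32 and 12.38 in VVM, were the others. Array means were 9.42, 9.28 and 9.55 in IVM and 9.80, 9.63, 9.66 and 9.86 in VVM, and the PM range of 9.29 to 9.57 overlapped with IVM. With the covariate 1 member passed lower and none higher.

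**Figure D3:**
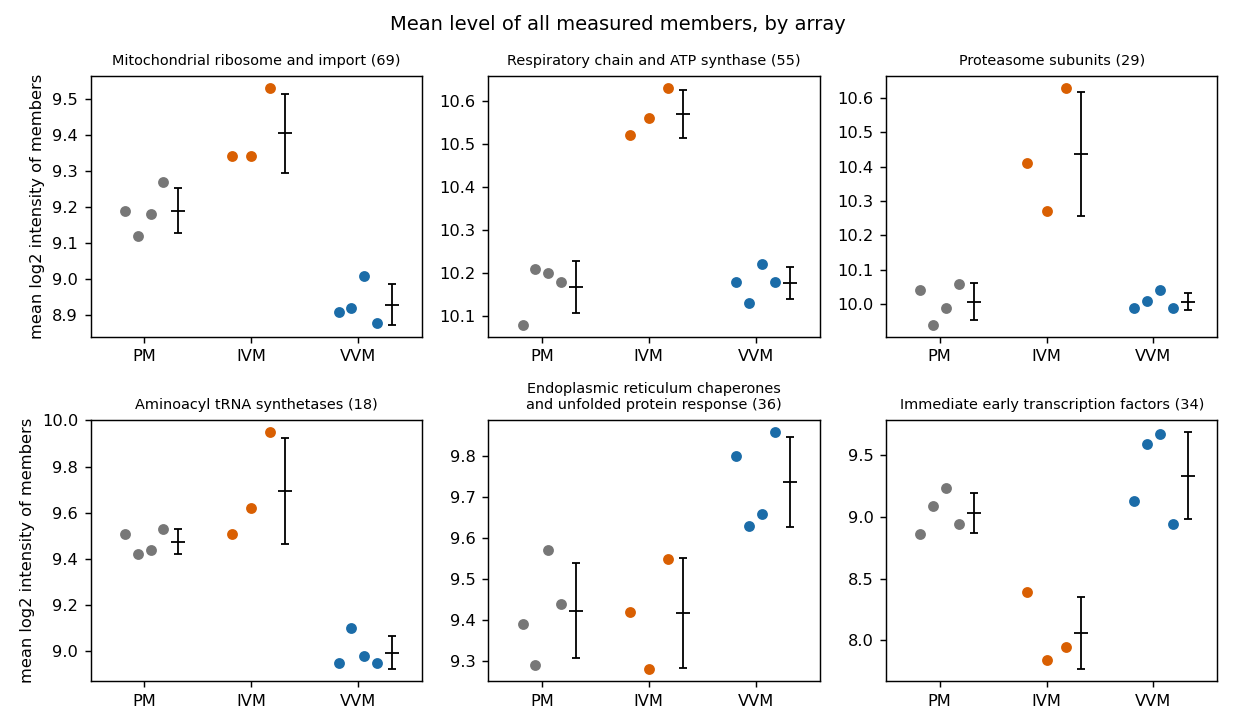
Mean log2 intensity of all measured members of 6 gene lists (number in brackets) in each array, with the mean and SD of each group beside the points (PM grey, IVM orange, VVM blue, n = 4, 3 and 4), each panel on its own scale that does not start at 0. IVM lies above VVM in the first 4 panels and below it in the last 2; VVM lies below PM for tRNA synthetases and the mitochondrial ribosome and within or near PM for the proteasome and the respiratory chain.

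Cytosolic translation held few calls. Of 36 measured cytosolic ribosomal proteins 2 were called higher (5.56%) and none lower. They were RPS15 (1.12 ± 0.15) and RPL29 (0.83 ± 0.17, 1 of 3 probe sets). As 2 other probe sets of RPL29 passed lower, that gene is uncertain. Of 38 initiation and elongation factors 3 were called higher (7.89%) and 2 lower (5.26%). The higher members were EIF3D (0.69 ± 0.14, 1 of 3 probe sets), EIF3J (0.79 ± 0.15, 1 of 4 probe sets) and EIF4G3 (0.74 ± 0.15, 1 of 3 probe sets). EIF4E3 (-1.86 ± 0.26, 2 of 4 probe sets), a cap-binding protein, and PAIP2 (-0.87 ± 0.14), which restrains poly(A)-binding protein, were lower. In heat shock proteins 2 of 42 were called in each direction (4.76% each), near the shares of all genes. The stress-induced DNAJB1 was lower (-1.30 ± 0.26) and BAG2 higher (1.48 ± 0.28).

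**Figure D4:**
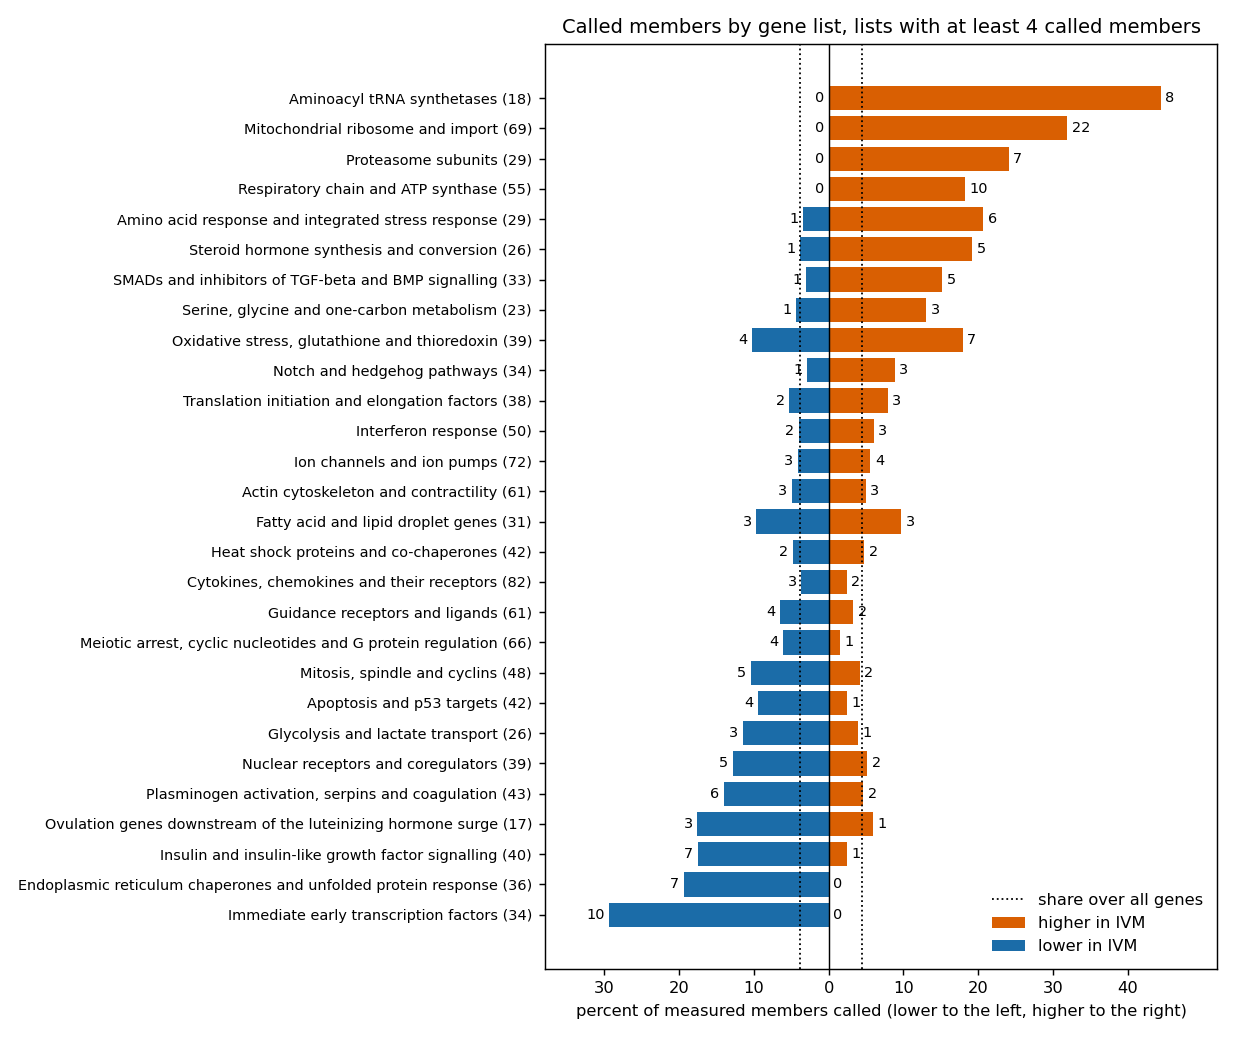
Share of the measured members of each list (their number in brackets) that was called higher (orange, to the right) or lower (blue, to the left) in IVM than in VVM, with the counts at the bar ends, for the lists with at least 4 called members; dotted lines mark the shares over all genes (4.44% and 3.91%). The tRNA synthetases (8 of 18 higher) and the immediate early factors (10 of 34 lower) stand at the ends.

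Of 26 measured genes of glycolysis and lactate transport, 3 were called lower (11.5%), all of them transporters, and 1 higher (3.85%). SLC2A3 (GLUT3), a high-affinity glucose transporter, stood at 6.45, 7.43 and 6.69 in IVM and at 9.35, 9.48, 10.47 and 8.62 in VVM (-2.62 ± 0.36, 2 of 4 probe sets), and SLC2A10, another transporter of the family, at 8.55, 8.56 and 7.98 in IVM and 11.14, 10.32, 10.33 and 10.996 in VVM (-2.33 ± 0.28). SLC16A7 (MCT2), which carries lactate and pyruvate, stood at 5.54, 4.95 and 4.38 in IVM and 6.92, 7.82, 7.06 and 7.49 in VVM (-2.37 ± 0.28). All 3 transporters were above PM in VVM, by 1.70, 1.64 and 2.41, and did not pass against PM in IVM. HK1, a hexokinase, was the enzyme higher in IVM, but of its 4 probe sets 1 passed higher and 1 lower, so its direction is uncertain.

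PCK1, the enzyme that commits carbon to glucose synthesis, stood at 6.28, 6.93 and 8.27 in IVM and at 3.70, 3.85, 3.96 and 3.44 in VVM (3.42 ± 0.50, adjusted p = 0.00185), and both probe sets passed. Its PM arrays, at 3.63, 3.85, 4.28 and 5.66, lay below all IVM arrays. TALDO1 of the pentose phosphate pathway was higher (0.95 ± 0.12) and OGT, which attaches sugar to nuclear proteins, lower (-1.62 ± 0.30). At the entry of the citric acid cycle, the pyruvate dehydrogenase phosphatase PDP1 was lower, at 5.82, 5.50 and 6.70 in IVM and 8.32, 8.16, 7.55 and 8.19 in VVM (-2.05 ± 0.28). In the cycle itself MDH2, a malate dehydrogenase, was higher (1.18 ± 0.13) and SUCLA2, a subunit of succinyl-CoA synthetase, lower (-1.39 ± 0.28).

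Of 31 fatty acid and lipid droplet genes 3 were called in each direction (9.68% each), with a median of -0.06. FASN, the fatty acid synthase, stood at 10.17, 10.29 and 10.36 in IVM and at 8.27, 8.80, 8.88 and 8.91 in VVM (1.55 ± 0.18), and ACACA, which makes its substrate, was called higher too, as was SREBF1, which activates both genes (1.44 ± 0.25, 2 of 3 probe sets). ACSL1, an acyl-CoA synthetase that activates fatty acids, was lower and stood at 9.58, 7.11 and 7.77 in IVM and at 10.78, 9.88, 10.24 and 10.50 in VVM (-2.20 ± 0.45), and CD36, a fatty acid receptor, at 5.37, 3.86 and 3.91 in IVM and 6.60, 5.65, 6.04 and 5.96 in VVM (-1.68 ± 0.34). FABP3, a fatty acid carrier, was higher in IVM (1.92 ± 0.34), and AADAC, a lipid esterase, lower (-5.21 ± 0.85, 1 of 2 probe sets), at 5.39, 5.24 and 5.73 in IVM and 7.58, 11.65, 11.04 and 12.39 in VVM, of which VVM 1 was the lowest. DHCR7, the last enzyme of cholesterol synthesis, was lower (-2.01 ± 0.37). Of 25 cholesterol genes 1 was called in each direction (4% each), SREBF1 and DHCR7, near the shares of all genes.

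Redox genes were called higher in 7 (17.9%) and lower in 4 (10.3%) of 39 cases. NFE2L2, the factor that activates antioxidant genes, was higher in IVM (0.69 ± 0.15, 2 of 5 probe sets), and BACH1, the repressor that competes with it, was lower, at 7.75, 7.16 and 7.17 in IVM and 9.98, 9.86, 9.91 and 9.94 in VVM (-2.56 ± 0.20, 1 of 2 probe sets). SRXN1, which repairs peroxiredoxins (1.05 ± 0.20), GSTP1, a glutathione transferase (0.81 ± 0.13), and SLC7A11 were higher. PRDX2 (0.90 ± 0.17, 2 of 3 probe sets), BLVRB (0.87 ± 0.17) and GSTK1 (0.96 ± 0.17) were higher too. SOD2, the mitochondrial superoxide dismutase, was lower, at 9.37 ± 0.54 over the 3 culture arrays (SD) against 11.37 ± 0.55 over the 4 VVM arrays (SD) (-1.99 ± 0.30, 1 of 2 probe sets), as were GSTZ1 (-2.19 ± 0.40, 1 of 3 probe sets) and GSTT1 (-1.10 ± 0.17).

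Junctions and adhesion turned on a few genes. GJA5 (connexin 40) stood at 11.31, 10.64 and 12.15 in IVM and at 7.78, 5.40, 5.93 and 7.81 in VVM (4.63 ± 0.61), and PM lay between them at 8.51, 9.77, 8.35 and 9.32. It was the only called connexin, since the gap junction, tight junction and desmosome list held 1 gene higher and 1 lower of 41 (2.44% each), below the shares of all genes. The lower gene, the desmosomal cadherin DSC2, had 1 probe set passing in each direction. VCAM1, an adhesion molecule, stood at 6.46, 7.21 and 7.15 in IVM, at 10.97, 11.75, 10.39 and 11.50 in VVM and at 10.08, 9.77, 11.69 and 10.11 in PM, so that IVM alone lay below PM (-3.47) and VVM overlapped with it. ITGA6, a laminin receptor subunit, was lower as well (-1.63 ± 0.30, 2 of 4 probe sets). Of 48 measured adhesion molecules, integrins and cadherins 2 were called lower (4.17%) and none higher, near or below the shares of all genes.

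Genes of plasminogen activation, serpins and coagulation were called lower in 6 of 43 cases (14%) and higher in 2 (4.65%). TMPRSS7, a membrane serine protease, stood at 6.15, 5.57 and 5.57 in IVM and at 11.75, 9.04, 10.10 and 10.004 in VVM (-4.46 ± 0.47), against a PM mean of 4.09. PROS1 (protein S), a cofactor that limits clotting, stood at 10.72, 9.09 and 9.48 in IVM and at 12.07, 12.01, 12.18 and 12.05 in VVM (-2.32 ± 0.30), and TFPI, which blocks the start of clotting, at 10.47, 8.86 and 9.38 in IVM and 11.07, 10.94, 10.99 and 11.09 in VVM (-1.45 ± 0.29). F5, a cofactor of thrombin formation (-1.90 ± 0.40, 1 of 2 probe sets), and the serpins SERPINA5 (-2.78 ± 0.54, 1 of 2 probe sets) and SERPINA3 (-1.51 ± 0.32, 2 of 5 probe sets) completed the lower members. PROS1, TFPI, F5 and SERPINA3 passed above PM in VVM and not in IVM. F2RL1, a protease-activated receptor (1.07 ± 0.20, 1 of 2 probe sets), and PLAU, the urokinase plasminogen activator (0.63 ± 0.13, 1 of 2 probe sets), were higher. In the matrix itself SPON2, a secreted matrix protein, stood at 12.50 ± 0.44 over the 3 culture arrays (SD) against 9.40 ± 1.01 over the 4 VVM arrays (SD) (3.10 ± 0.43), above PM in both, while COL4A5 of the basement membrane was lower (-1.88 ± 0.34, 1 of 2 probe sets). Collagens, laminins and other matrix proteins held 2 genes higher and 1 lower of 73, below the shares of all genes.

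Of 48 measured genes of cell division, 34 passed below PM in IVM and 32 in VVM. Over all genes 45.9% passed against PM in IVM and 39.8% in VVM, counting both directions. Between the matured groups 5 of the 48 were called lower in IVM (10.4%) and 2 higher. CCNB2, a mitotic cyclin, stood at 6.29, 7.22 and 8.31 in IVM, 9.19, 9.29, 8.94 and 9.59 in VVM and 10.83, 10.73, 10.42 and 10.86 in PM (-1.98 ± 0.36). TPX2, a spindle factor, stood at 5.53, 6.11 and 6.77 in IVM and at 8.37, 8.80, 8.10 and 10.04 in VVM (-2.69 ± 0.43), where VVM did not pass against PM (0.07). CDC25B (-1.34 ± 0.22) and WEE1 (-1.98 ± 0.38, 1 of 2 probe sets), the phosphatase and the kinase that act on CDK1, were both lower, and CKAP2, a spindle protein, was too (-2.16 ± 0.49, 1 of 2 probe sets). The members called higher in IVM (4.17%, near the share of all genes) were CCND3 (1.39 ± 0.23), a cyclin, and CDK4 (0.70 ± 0.15), a kinase that it activates, both below PM in VVM. GMNN (geminin), which prevents a repeated round of replication, stood at 11.71, 12.20 and 11.62 in IVM, 9.33, 9.96, 9.06 and 8.66 in VVM and 9.97, 10.57, 10.40 and 10.07 in PM, so that it passed above PM in IVM and below it in VVM. Of 41 replication genes 2 were called higher (4.88%) and 1 lower (2.44%), near or below the shares of all genes.

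Of 42 apoptosis and p53 genes, 4 were called lower (9.52%) and 1 higher (2.38%). PMAIP1 (NOXA), which promotes cell death, stood at 4.55, 4.88 and 5.07 in IVM and at 6.62, 7.52, 8.21 and 6.67 in VVM (-2.42 ± 0.41, 1 of 2 probe sets), and the death receptor TNFRSF21 at 4.86, 5.02 and 6.29 in IVM and 9.20, 7.74, 8.09 and 8.01 in VVM (-2.87 ± 0.46). MDM2, which degrades p53 (-1.36 ± 0.26, 3 of 4 probe sets), and CFLAR, which blocks death receptors (-1.16 ± 0.22), were lower too, so that members of both effects were lower. FDXR, given with the steroid genes, was the member higher.

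Of 61 measured guidance receptors and ligands 2 were called higher and 4 lower (9.84%), near the 8.35% of all genes. UNC5B, a netrin receptor, stood at 8.97, 11.08 and 11.27 in IVM and at 6.50, 6.78, 6.58 and 6.76 in VVM, with VVM overlapping PM (7.06, 6.74, 6.50 and 6.97) and IVM 1 below the other IVM arrays. PLXND1, a semaphorin receptor, was higher in IVM (2.55 ± 0.41). The ligand SEMA3C, at 9.70, 9.32 and 9.38 in IVM and 11.75, 11.54, 11.82 and 11.59 in VVM, was 4.64-fold lower in both of its probe sets (-2.21 ± 0.15, adjusted p = 4.65e-05), and its coreceptor NRP1 was lower (-1.79 ± 0.32, 1 of 3 probe sets). SEMA6D (-2.50 ± 0.27, 3 of 4 probe sets) and the ephrin EFNB2 (-2.55 ± 0.48, 1 of 2 probe sets) were also lower. Of 55 WNT pathway genes 1 was called higher and 2 lower (5.45%), below the share of all genes. SFRP4, a secreted antagonist, was higher, at 9.53, 11.04 and 8.46 in IVM and 5.97, 6.71, 7.66 and 6.87 in VVM (2.87 ± 0.52, 1 of 4 probe sets), and the R-spondin receptor LGR4 (-1.33 ± 0.19, 1 of 2 probe sets) and the ligase RNF43 that it opposes (-0.83 ± 0.14, 1 of 3 probe sets) were lower. Of 34 Notch and hedgehog genes 3 were called higher (8.82%) and 1 lower (2.94%). The Notch target genes HEYL (2.01 ± 0.38, 1 of 2 probe sets) and HEY2 (0.69 ± 0.15, 1 of 2 probe sets) and the related factor HES6 (1.52 ± 0.32) were higher, and the coactivator MAML2 was lower (-0.93 ± 0.16, 1 of 2 probe sets).

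**Figure D5:**
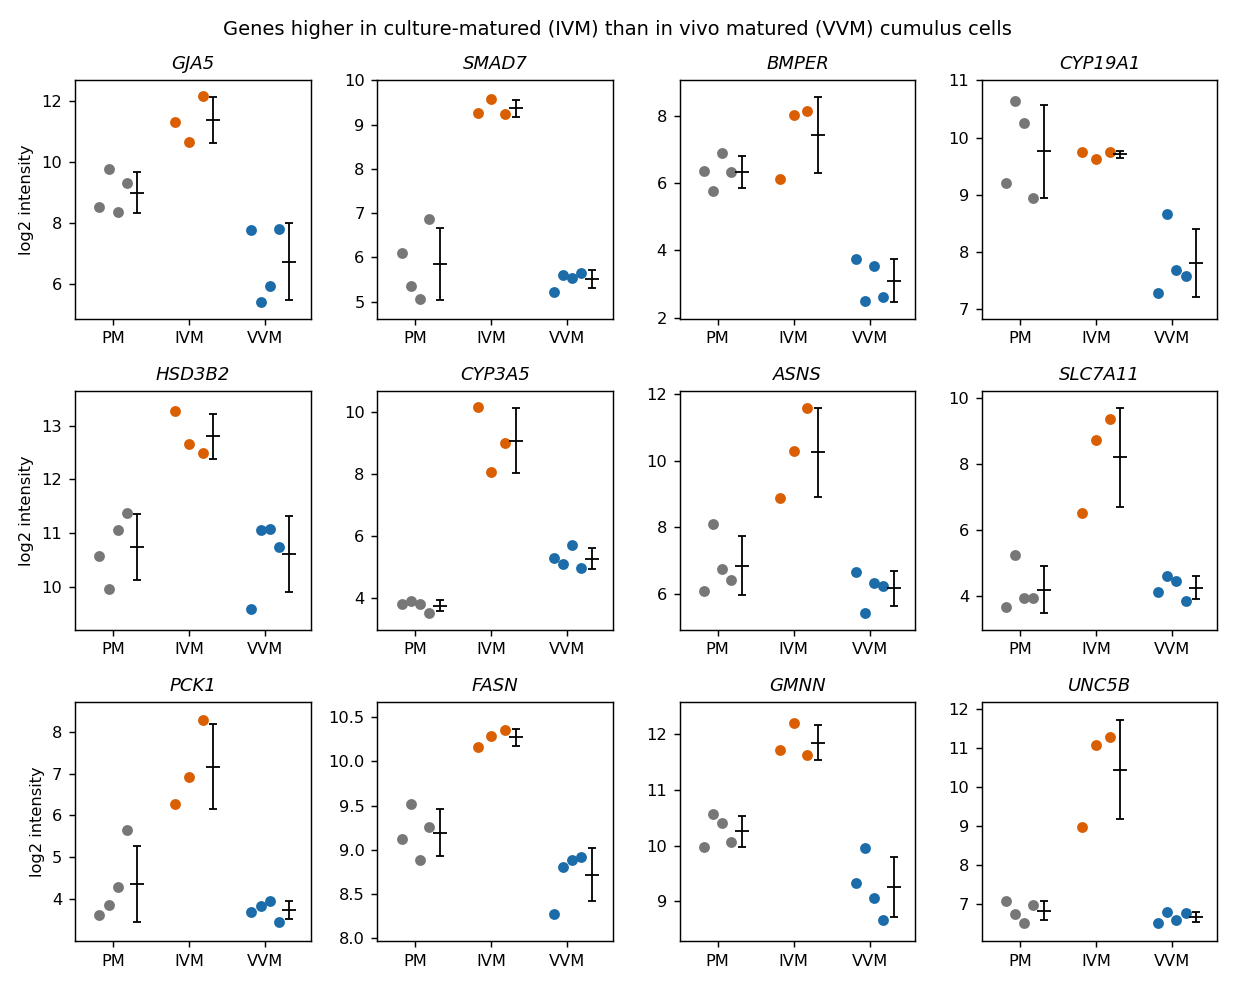
Log2 intensity of 12 genes called higher in IVM than in VVM, drawn as for the lower genes: each point is an array (PM grey, IVM orange, VVM blue), the bar is the mean with its SD (n = 4, 3 and 4), and each panel has its own scale. In every panel the IVM points lie above the VVM points; PM is at the IVM level for CYP19A1, at the VVM level for SMAD7 and UNC5B, and between the groups for GJA5 and GMNN.

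Cytokine and interferon genes gave few calls. Of 82 cytokines, chemokines and receptors 2 were higher and 3 lower, below the shares of all genes. IL13RA2, a decoy receptor for interleukin 13, stood at 3.05, 3.54 and 3.21 in IVM and at 9.51, 6.08, 6.65 and 6.59 in VVM (-3.94 ± 0.63), with VVM 1 the highest array, and IL1R2, the interleukin 1 decoy, at 8.27, 9.01 and 9.31 in IVM and 11.40, 10.21, 10.13 and 10.67 in VVM (-1.74 ± 0.32, 3 of 4 probe sets). The third lower gene, IL2, a T cell cytokine, stood at 9.19, 9.03 and 8.79 in IVM and 10.69, 10.89, 11.14 and 10.81 in VVM, but 1 of its 3 probe sets did not pass, so this call is uncertain. SOCS1, a feedback inhibitor of cytokine receptors (0.72 ± 0.14, 1 of 5 probe sets), and IL17RB (0.96 ± 0.17) were higher in IVM. Of 50 interferon response genes 3 were called higher and 2 lower, near the shares of all genes. OAS1 (-2.63 ± 0.33, 1 of 5 probe sets) and IRF1 (-1.98 ± 0.44) were lower, and IRF3 (0.97 ± 0.17, 1 of 2 probe sets), IFI35 (0.77 ± 0.14) and PSMB10 higher. OAS1 and IRF1 stood highest in VVM 3 and VVM 2 respectively, and the part of the leukocytes in these values was not tested apart from the fits given above. HBB, a globin gene of red blood cells, was lower in IVM, at 6.89, 6.47 and 6.25 against 9.56, 9.89, 8.15 and 9.59 in VVM, while the other 7 of 8 erythroid markers were not called.

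Ion channels were called higher in 4 and lower in 3 of 72 cases, near the shares of all genes, with large differences in a few. KCNK3, a potassium leak channel, stood at 10.09, 10.74 and 10.77 in IVM and at 8.09, 8.35, 8.93 and 8.08 in VVM (2.17 ± 0.27), and its relative KCNK5 ran the other way at 6.15, 4.88 and 5.38 in IVM and 8.98, 7.68, 8.05 and 8.65 in VVM (-2.87 ± 0.34, 1 of 2 probe sets). KCNA5, a voltage-gated potassium channel, was higher (2.26 ± 0.45, 1 of 2 probe sets) and ATP2B1, a calcium pump of the plasma membrane, lower in all 3 of its probe sets (-2.31 ± 0.26). KCNG3, a modifier subunit of potassium channels outside that list, stood at 7.87, 5.07 and 4.89 in IVM and at 10.29, 9.82, 11.05 and 9.23 in VVM (-4.15 ± 0.64, 1 of 2 probe sets). Of 61 actin cytoskeleton genes 3 were called in each direction, near the shares of all genes. RND3, which opposes contraction (-2.19 ± 0.30), ROCK2, the kinase that drives it (-1.36 ± 0.27, 2 of 3 probe sets), and the myosin light chain MYL12A (-0.86 ± 0.15, 1 of 3 probe sets) were lower, and ARPC1B (1.38 ± 0.26), a subunit of the actin-branching complex, and FHL3 (0.52 ± 0.11) were higher. The third higher member was KRT19, a keratin of surface epithelium (2.32 ± 0.44), the only called member of 18 surface and oviduct epithelial markers.

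Some of the largest differences lay outside these groups. By size the first of the 1180 called genes was one annotated as USP14, a deubiquitinase of the proteasome, at 4.16, 6.09 and 5.16 in IVM, 14.04, 14.41, 12.69 and 13.62 in VVM and 14.14, 13.22, 13.20 and 13.68 in PM (difference from VVM -8.55 ± 0.47, adjusted p = 1.06e-05 by limma). All 5 of its probe sets passed lower, and no IVM array came near either of the other groups. The name is doubtful, since 1 of the 5 carries in the platform annotation the same sequence record as the probe set of HBB, the beta chain of haemoglobin. HBB was itself lower in IVM (-2.76 ± 0.35), also without overlap between the groups, and whether red blood cells had a part in either difference was not tested. ST8SIA5, a sialyltransferase, stood at 7.71, 7.58 and 8.41 in IVM and at 4.63, 5.10, 5.07 and 4.84 in VVM (2.99 ± 0.25), and ENC1, an actin-binding protein, at 12.48, 12.22 and 12.53 in IVM and 9.54, 9.60, 9.53 and 10.47 in VVM (2.62 ± 0.22). UPK1B, a uroplakin, was higher in IVM (2.22 ± 0.27, 3 of 4 probe sets) though below PM in both groups, with changes of -1.41 and -3.63. Among the lower genes PENK (proenkephalin), the precursor of opioid peptides, stood at 5.45, 4.44 and 5.55 in IVM and at 8.70, 8.28, 8.996 and 6.73 in VVM (-3.03 ± 0.50, 1 of 2 probe sets). ARID5B, a DNA-binding regulator, stood at 6.47, 6.23 and 5.90 in IVM and at 10.34, 9.74, 9.10 and 10.23 in VVM (-3.65 ± 0.32, 1 of 2 probe sets), and OPN3, an opsin, at 5.87, 5.35 and 5.82 in IVM and 9.93, 8.94, 9.39 and 9.14 in VVM (-3.67 ± 0.22). PON2, a paraoxonase, was 12.5-fold lower in IVM (-3.64 ± 0.52) and passed below PM in IVM only.

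The 3 IVM arrays did not lie equally far from VVM. Among the 628 genes called higher, IVM 1 was the array nearest to VVM in 342 (54.5%), IVM 2 in 158 (25.2%) and IVM 3 in 128 (20.4%). Among the 552 genes called lower, IVM 1 was nearest in 250 (45.3%), IVM 3 in 236 (42.8%) and IVM 2 in 66. AREG, PTX3, HSD11B1 and KLF4 were all highest in IVM 1, and ASNS, SLC7A11, PHGDH and PCK1 were all highest in IVM 3. In VVM the array nearest to IVM was most often VVM 3 for genes called higher (245, 39.0%), and VVM 2 and VVM 3 equally for genes called lower (189 each, 34.2%). Without IVM 2 the genes that passed numbered 803 higher and 620 lower, in place of 1280 and 1078.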

How the data were processed

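The deposited value table holds linear intensities, 1 per probe set and array, made with Affymetrix Expression Console and RMA per the submitters' processing notes; versions are not given in the sources used here. RMA corrects the background, normalizes arrays by quantiles and summarises probes, so a change of total RNA per cell would not show. From the deposited intensities log2 values were computed. Of 52865 probe sets 99 controls were left out, and the remaining 52766 were fitted together. In the platform annotation 24956 probe sets carried 1 symbol, 361 several and 27449 none. The 1-symbol probe set with the highest mean over all arrays stood for each of 14132 genes, of which 6375 had several probe sets.

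Groups came from the array titles. limma 3.58.1 in R 4.3.3 fitted the 3 group means over all 11 arrays (8 residual degrees of freedom), with moderated two-sided tests and Benjamini-Hochberg adjustment over all 52766 probe sets. Figures and tables were made with Python 3.11.15. The procedure was tested on simulated data. Genes named were called members of 51 process and 8 cell type lists (1970 genes measured of 2689), the 4 members of each list with the largest differences among those not called, the 40 largest differences in each direction, the 10 largest of each class of change from PM, and members of the EGF, expansion matrix and granulosa lists. The comparison and its lists were chosen with earlier results of these data known.

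Titles number the arrays in each group. Same-numbered arrays deviated from their group means with correlations of -0.107 to 0.101, so the numbers were not taken as pairs. Alternatives were leaving out each array, centring, another quantile normalization, a level filter, adjustment over genes alone, the 7 arrays alone, an intensity trend, array weights, the replicate number as a block, covariates for hybridization controls and leukocyte markers, leaving out 3 arrays, a 2-fold threshold and the mean of a gene's probe sets.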

Additional observations from a re-analysis of the deposited data

Results flagged for a closer look

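For 229 named genes, the 4 arrays of PM and the 4 of VVM were searched for 1 array that stood apart, by Dixon's test of the gap to its neighbour over the range of the group. Of 458 groups 36 held such an array (7.86%), and chance alone marks about 1 in 20. Values are log2 intensities.

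Among VVM arrays, 1 stood above the other 3 in BLVRB (VVM 3 at 11.15, the others from 10.55 to 10.62), DERL1 (VVM 1 at 10.69, the others from 10.18 to 10.21) and ENC1 (VVM 4 at 10.47, the others from 9.53 to 9.60). It did so also in GNAI1 (VVM 4 at 11.61, the others from 10.89 to 10.95), IL13RA2 (VVM 1 at 9.51, the others from 6.08 to 6.65) and NCOA4 (VVM 1 at 12.59). Further VVM cases were NR4A2 (VVM 1 at 10.79, the others from 10.29 to 10.34), PRDX2 (VVM 4 at 10.95, the others from 10.33 to 10.35) and RNF43 (VVM 1 at 11.31). In VVM 1 array stood below the other 3 in ATP5MC1 (VVM 1 at 9.72, the others from 10.25 to 10.34), DNAJB1 (VVM 4 at 10.82, the others from 11.44 to 11.56) and GSTK1 (VVM 1 at 9.31, the others from 9.95 to 10.07). Low VVM arrays were also seen in GSTP1 (VVM 2 at 11.86, the others from 12.13 to 12.18), IRS2 (VVM 3 at 11.32, the others from 11.57 to 11.59) and NDUFS8 (VVM 1 at 9.10, the others from 9.65 to 9.73).

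Among PM arrays, 1 stood above the other 3 in BAG2 (PM 1 at 7.76, the others from 7.01 to 7.13), ERO1A (PM 3 at 8.51, the others from 7.74 to 7.86) and GATA4 (PM 2 at 11.32, the others from 10.71 to 10.76). It did so also in HAS2 (PM 2 at 6.90, the others from 4.35 to 4.72), IGFBP1 (PM 4 at 5.61, the others from 3.40 to 3.59) and INHA (PM 3 at 14.01, the others from 13.78 to 13.80). Further PM cases were IRF3 (PM 4 at 9.79, the others from 9.32 to 9.38), KLF2 (PM 3 at 8.77, the others from 7.79 to 7.93) and LYZ (PM 1 at 4.10, the others from 3.36 to 3.41). High PM arrays were found in PMEPA1 (PM 2 at 10.38, the others from 8.75 to 8.82), POR (PM 3 at 12.11, the others from 11.91 to 11.93) and ROCK2 (PM 2 at 8.40, the others from 7.73 to 7.83). The last PM genes with a high array were TFPI (PM 1 at 9.60, the others from 9.25 to 9.30) and TMPRSS7 (PM 4 at 4.33). In PM 1 array stood below the other 3 in CFLAR (PM 1 at 8.23, the others from 8.92 to 9.05), EGR2 (PM 2 at 9.07, the others from 10.63 to 10.91) and PROS1 (PM 2 at 10.22, the others from 10.62 to 10.64). Low PM arrays were also seen in RICTOR (PM 2 at 8.23, the others from 8.32 to 8.33), TNFRSF21 (PM 3 at 6.47, the others from 7.78 to 7.92) and TYROBP (PM 2 at 4.51, the others from 4.91 to 4.94). The remaining low PM arrays belonged to VCAN (PM 4 at 12.51, the others from 12.72 to 12.76).

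Every gene given as called passed also without any 1 of these arrays, as the definition of a call requires, so this is no further check.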

How the results depend on the processing

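With all arrays limma passed 1280 genes higher and 1078 lower in IVM. Leaving out 1 array gave 803 to 1228 higher and 620 to 1121 lower, and the lowest counts came without IVM 2. With the hybridization control level as a covariate 191 passed higher and 131 lower, with the leukocyte level 583 and 632, and without PM 1, VVM 2 and VVM 3 together 657 higher and 736 lower. At least a 2-fold difference left 442 higher and 686 lower. The counts called in every fit, 628 and 552, became 338 and 317 with the IVM and VVM arrays alone, 288 and 251 with array weights, and 321 and 317 with the replicate number as a block, where 1173 of the 1180 called genes passed with all arrays. They became 0 and 2 with the hybridization level, 81 and 122 with the leukocyte level, and 82 and 139 without the 3 arrays. Fewer samples or residual degrees of freedom remain in these fits, and their part in the lower counts was not tested. The hybridization level and the group cannot be told apart. A 2-fold threshold left 253 higher in every fit. Higher genes made up 54.3% of those that passed, 49.0% with centring and 60.5% after another quantile normalization. Every called gene kept its sign under these settings except the mean of a gene's probe sets, where 1169 did; RPL29 then stood at -0.488.

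Signs turned also in genes that were not called. HAS2 ranged from -0.087 without IVM 1 to 0.685 without IVM 3, and stood at -0.264 with the leukocyte covariate, -0.076 without the 3 arrays and 0.903 as the mean of its probe sets. HBEGF ranged from -0.424 without IVM 1 to 0.184 without VVM 3, was above 0 also without IVM 2 (0.016), and stood at 0.655 with the leukocyte covariate, 0.251 without the 3 arrays and -0.763 with the hybridization covariate. CD14 and PTPRC, 2 of the 4 genes of the leukocyte covariate, stood at 0.387 and 0.415 with it. That fit removes part of their own level, so their change of sign says nothing further. The cause of the changes in HAS2 and HBEGF was not tested. Signal over background limits genes at low levels.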
